A study of Mus musculus with 16 samples.

Results

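The Rab genes of splenic B cells were described here, 43 in all. They are the genes of the table whose symbol is Rab, a number and at most 1 letter or digit more, and whose mean normalized count over the 8 RNA libraries was at least 10. Of 59 Rab genes in the table, 16 lay below that level, and 43 are among the 14761 genes that passed it out of 27928. Selection used the mean level alone, and neither the cell subset nor the genotype was part of the rule. A low gene can still pass through 1 subset, as Rab39b did, with means of 8.66 in FO and 14.9 in MZ. Just inside the limit were Rab44, with a mean of 12.7 normalized counts, and Rab39b, with 11.8, and just outside it were Rab33a, with 8.92, and Rab4a, with 8.81. Rab4a lies within a longer gene of the same strand, Gm20388, so its reads could not be assigned with certainty.

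Rab proteins are small GTPases, each of which marks a limited set of membranes and decides which vesicles bud, move, dock and fuse there. A Rab is switched on by an exchange factor that loads GTP, recruits effectors such as tethers and motor adaptors while it is on, and is switched off by a GTPase-activating protein. Prenylation anchors it in the membrane, and GDI proteins carry it back through the cytosol. In B cells these steps carry the antigen receptor from the surface to endosomes where peptides are loaded on MHC class II, return receptors to the surface, and move new immunoglobulin through the Golgi.

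Follicular (FO) B cells, which recirculate through the follicles, and marginal zone (MZ) B cells, which sit at the edge of the splenic white pulp and answer blood-borne antigens rapidly, were sorted from spleens of C57BL/6 mice 8 to 12 weeks old. After B cells had been enriched by negative selection, the gate for FO cells took those high in CD23 and low in CD21, and the gate for MZ cells the reverse. WT mice were BL6, and cKO mice carried Gtf2i fl/fl alleles for conditional deletion of the gene of the transcription factor TFII-I in B cells. Each of the 4 groups, WT FO, WT MZ, cKO FO and cKO MZ, had 2 libraries. Nothing in the labels says that the 2 libraries of a group came from separate mice. The p-values therefore measure the spread between these libraries. That spread may be technical except in cKO FO, whose libraries differ in the sex-linked transcript Xist (14748 and 67.4).

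Normalized counts of Gtf2i itself were 2864 and 2471 for the WT and 1782 and 1889 for the cKO libraries of MZ cells, and 2039.8 and 1992 against 1523 and 1531 for those of FO cells. WT libraries lay above cKO libraries throughout, with a log2 difference of -0.54 in MZ (limma adjusted p = 0.363) and -0.40 in FO (limma adjusted p = 0.989), and a count of the complete gene does not tell deleted exons from those that remain. Reads on genes ranged from 21546552 to 25083552 per library. Cr2, which encodes CD21, was between 86953 and 97087 normalized counts in the MZ libraries against 22942 to 26803 in the FO libraries, and Fcer2a, which encodes CD23, was between 24802 and 41973 in FO against 3069 to 6708 in MZ. The 20 granulocyte markers summed to 2313 in cKO MZ replicate 1 and to between 82.9 and 186 in the other libraries, and the 8 erythroid and platelet markers to 10216 there and to between 113 and 833 elsewhere. Macrophage markers (11 genes) summed to between 531 and 1149 in FO and between 585 and 1783 in MZ. Xist was between 25929.5 and 47002 in WT, 14748 in replicate 1 of cKO FO, and 89.7 or less in the remaining cKO libraries, while Ddx3y, on the Y chromosome, was at most 6.34 in WT and at least 2682 in cKO. The genotypes therefore also differ in sex-linked transcripts, and genotype and these transcripts cannot be told apart. Replicate 1 of cKO FO differs in Xist from both cKO MZ libraries as well, so the comparison of FO with MZ in cKO also carries such a difference.

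Values are normalized counts, reads divided by the size factor of their library. Differences are log2 differences of the normalized count plus 1, fitted by limma over all 14761 genes, and the pseudocount makes those of low genes smaller. Genes were called where p after the Benjamini-Hochberg adjustment did not exceed 0.05 and the difference reached 1.5-fold. With 2 libraries against 2, the exact permutation test for 1 gene has 0.333 as its smallest p, so each p rests on the spread that limma shares across genes. These are bulk samples, in which fewer cells of a kind and less RNA per cell cannot be told apart.

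Per length of exon, Rab5c of the early endosome stood highest, at 1679 normalized counts per kb, followed by Rab1b with 1125, Rab10 with 988, Rab7 with 914 and Rab8a with 798. Rab44 was lowest, at 2.51 per kb. The early endosome Rabs held 23.5% of the summed level per kb, the Rabs of the endoplasmic reticulum (ER) and of ER to Golgi traffic 18.8%, those of polarized exocytosis 15.8% and those of endosome recycling 14.7%. Regulated secretion held 2.35% and lysosome-related organelles 2.17%. The median of the members' means was 669.6 normalized counts, against 433 for all genes tested.

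**Figure D1:**
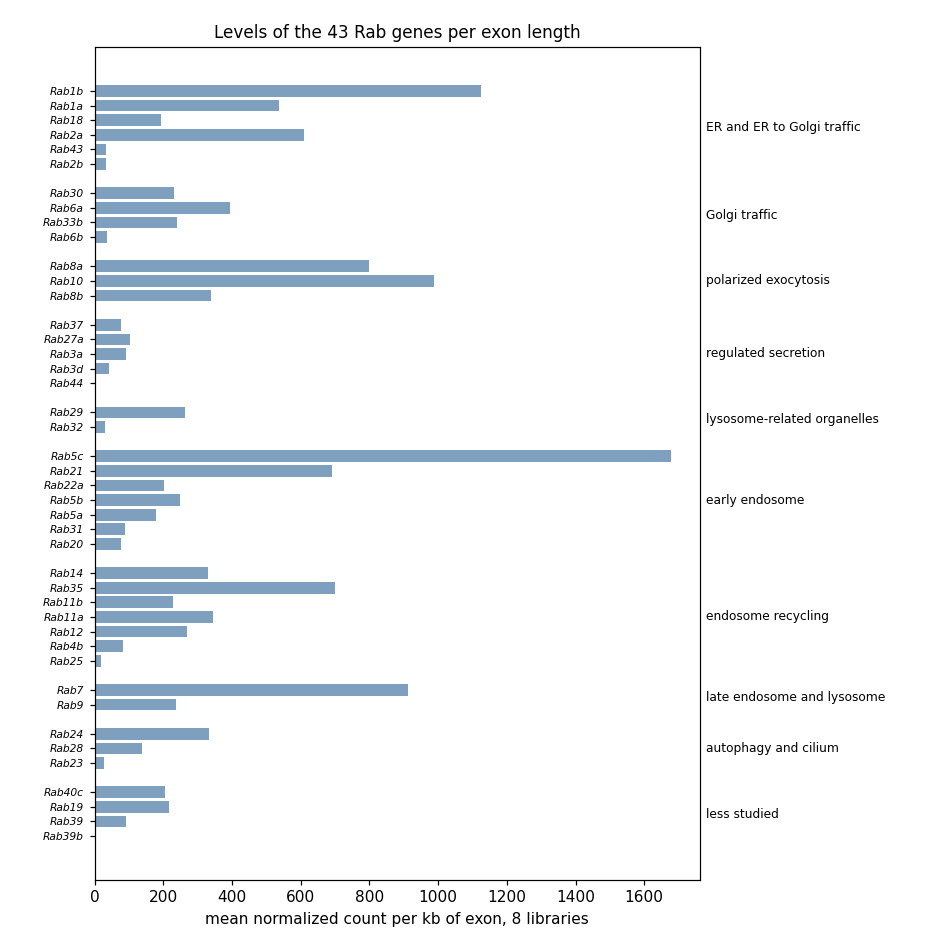
Mean normalized count per kb of exon over the 8 libraries for each of the 43 Rab genes, grouped by trafficking step (bars, linear axis from 0). Rab5c, at 1679 per kb, stands above every other member, and Rab44 and Rab39b, at 2.51 and 3.47, are near 0.

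The summed Rab transcript was higher in every FO library than in any MZ library, a comparison given without a test. Summed over the 43 genes, the normalized counts were 51952 ± 748 (SD, n = 4) in FO and 46630.2 ± 1954 (SD, n = 4) in MZ, with every FO library at 51251 or more and every MZ library at 49188 or less. As a share of all normalized counts this was 0.214% to 0.218% in FO and 0.200% to 0.208% in MZ. Abundant genes weigh most in such a sum, and Rab8a alone had means of 4662 in FO and 2803 in MZ. Whether the separation holds without Rab8a was not tested.

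Across both genotypes, 2 of the 43 Rab genes were called higher in FO (4.65%, where 7.45% of all genes tested were) and 2 were called higher in MZ (4.65%, where 10.9% of all genes were). Rab8a of polarized exocytosis and Rab6b of Golgi traffic were the FO genes, and Rab37 of regulated secretion and Rab30 of the Golgi were the MZ genes. Without the fold cutoff, 12 Rab genes had an adjusted p of at most 0.05 and were higher in FO (27.9%, against 16.3% of all genes), and the same 2 were higher in MZ (4.65%, against 17.1%). The 12 were Rab8a, Rab6b, Rab43, Rab2a, Rab6a, Rab35, Rab1a, Rab11b, Rab11a, Rab14, Rab22a and Rab7, of which 10 differed by less than 1.5-fold. Without cKO MZ replicate 1, the library with granulocyte and erythroid transcripts, 8 Rab genes passed in this direction, and without any other single library between 9 and 14 did.

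All 4 FO libraries lay above all 4 MZ libraries for 15 of the 43 genes (34.9%, against 17.9% of all genes), and all 4 MZ libraries lay above all FO libraries for 2 (4.65%, against 18.6%). The median difference over the 43 genes was 0.15, against 0.0045 over all genes tested, and 28 of the 43 were positive. Large differences were few, since the median size was 0.23 for the Rab genes and 0.28 for all genes. For 27 of the 43, the 95% interval of the difference lay within 1.5-fold in either direction, a count that was not made over all genes.

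**Figure D2:**
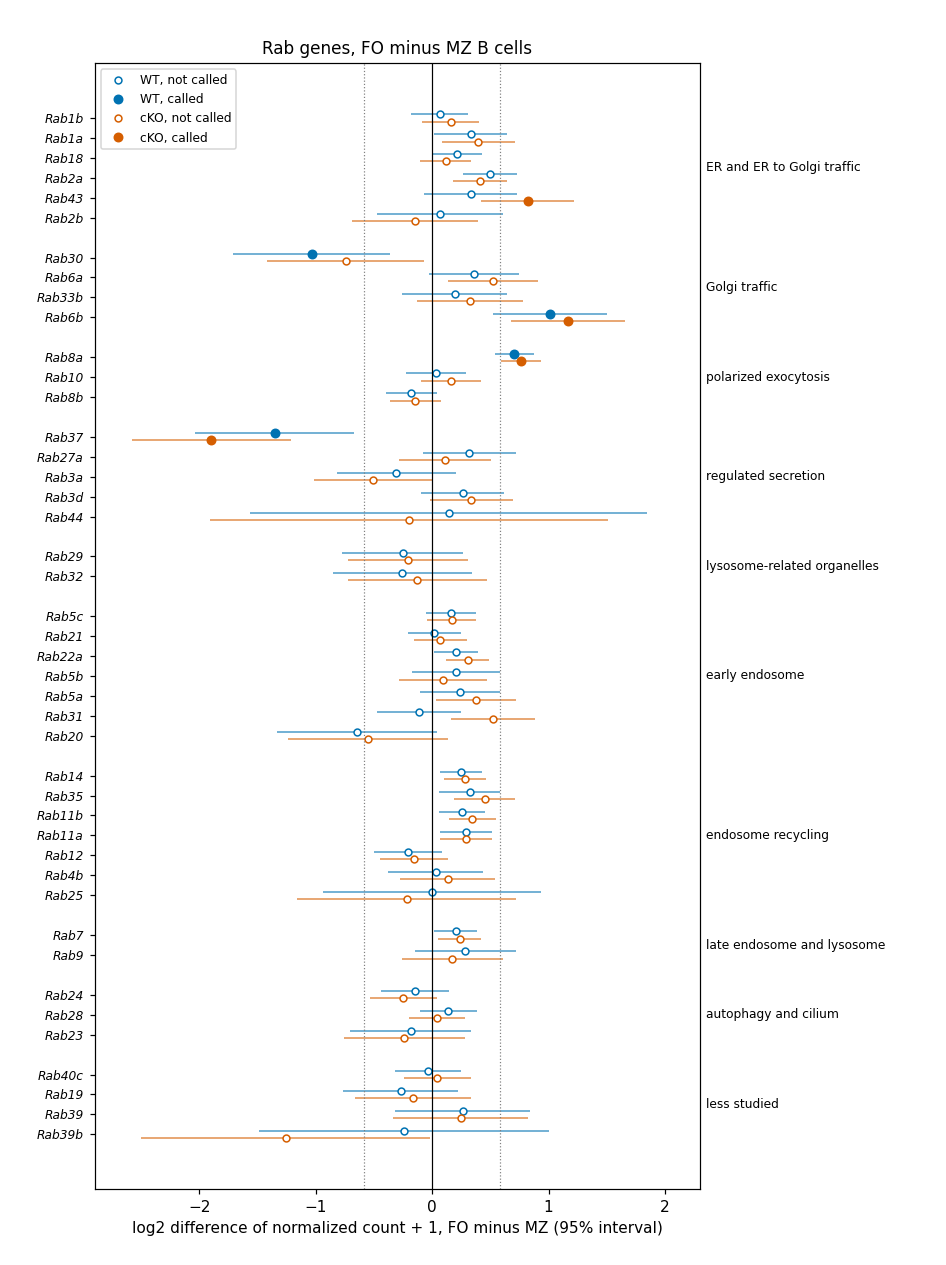
Log2 difference of normalized count + 1, FO minus MZ, with its 95% interval, for each Rab gene in WT (blue) and cKO (orange), grouped by trafficking step, with dotted lines at 1.5-fold and filled points for called genes. The filled points of Rab37 and Rab30 lie to the left of 0 and those of Rab6b, Rab8a and, in cKO, Rab43 to the right, while the recycling genes Rab14, Rab35, Rab11a and Rab11b sit a little above 0 in both genotypes.

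Within WT the called genes were Rab8a and Rab6b, higher in FO (2 of 43, 4.65%, against 4.62% of all genes), and Rab37 and Rab30, higher in MZ (2 of 43, 4.65%, against 7.41%). Within cKO they were Rab8a, Rab6b and Rab43, higher in FO (3 of 43, 6.98%, against 5.54%), and Rab37, higher in MZ (1 of 43, 2.33%, against 8.18%). Rab8a, Rab6b and Rab37 were thus called in each genotype, with a spread estimated from all 8 libraries. Rab43 was called in cKO and Rab30 in WT, though DESeq2 called Rab30 in both genotypes. In a fit of only the 4 libraries compared, Rab6b and Rab30 were not called in WT, and Rab30 was called in cKO. The interaction term, which tests whether the subset difference depends on genotype, gave -0.29 for Rab30 and -0.49 for Rab43 (limma adjusted p = 1.0 for both).

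Polarized exocytosis held the called difference with the smallest SE. Rab8a (ENSMUSG00000003037.16, chromosome 8 from 72161200 to 72183904 of GRCm38), which directs carriers from the trans-Golgi network and recycling endosomes to the plasma membrane, gave FO values of 4639 and 4512 normalized counts for WT and 4751 and 4744 for cKO. In MZ it had 2756 and 2856 in WT and 2828 and 2773 in cKO. The FO and MZ libraries did not overlap, and the genotypes were nearly level within each subset. The mean was 4662 ± 112 (SD, n = 4) in FO and 2803 ± 47.0 (SD, n = 4) in MZ, 1.66 times as high in FO, with a log2 difference of 0.71 (SE 0.0734, limma adjusted p = 0.000899) among WT libraries and of 0.76 (limma adjusted p = 0.000594) among cKO libraries. At the 1.5-fold cutoff it was called under every alternative and with any single library left out, with limma, edgeR or DESeq2 adjusted p of at most 0.0190 in WT, and it lay under a cutoff of 2-fold.

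Its closest relative, Rab8b (chromosome 9 from 66843664 to 66919687), was not called. Rab8b, singled out after its values were seen, had 1698, 1518, 1486 and 1349.8 normalized counts in FO and 1808, 1830.3, 1584 and 1549.8 in MZ, WT libraries first, so the subsets overlapped. Its log2 difference across both genotypes was -0.16 (SE 0.0665, limma adjusted p = 0.0984). Rab10, which shares effectors with Rab8a, had 3889, 3263, 3790.1 and 3412 in FO and 3676, 3310.1, 3239 and 3199.7 in MZ, with a difference of 0.09 (SE 0.0782, limma adjusted p = 0.389). Rab10 overlaps the antisense gene Rab10os in 143 of its 3513 exon bases, and whether reads were counted by strand is not given in the sources used here. Other members also overlap expressed genes of the opposite strand. Among them are Rab6a with Mrpl48 (mean 387), Rab2b with Tox4 (2324), Rab24 with Prelid1 (1591) and Rab3a with Mpv17l2 (369). Whether those pairs share exon bases was not tested.

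The promoters of the Rab8 and Rab6 pairs are shown because in each pair the difference between FO and MZ was called for 1 member alone. They are 300-base windows around the annotated start, from RefSeq for GRCm38.p6, in which 38 of the 43 members were found. Rab18, Rab2a, Rab30, Rab37 and Rab44 were the others. Windows lie at chr8:72160950-72161249 (plus strand) for Rab8a, chr9:66919656-66919955 (minus strand) for Rab8b, chr7:100607336-100607635 (plus strand) for Rab6a and chr9:103111824-103112123 (plus strand) for Rab6b. Each is written 5′ to 3′ on the strand of its gene, and capitals mark matches to the motifs named after them.
Rab8a: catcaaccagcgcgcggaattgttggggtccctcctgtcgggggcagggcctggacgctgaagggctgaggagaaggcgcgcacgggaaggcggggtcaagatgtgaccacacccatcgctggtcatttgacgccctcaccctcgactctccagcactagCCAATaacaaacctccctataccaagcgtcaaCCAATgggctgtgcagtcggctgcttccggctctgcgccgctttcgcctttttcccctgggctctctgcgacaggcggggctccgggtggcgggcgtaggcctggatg
Rab8b: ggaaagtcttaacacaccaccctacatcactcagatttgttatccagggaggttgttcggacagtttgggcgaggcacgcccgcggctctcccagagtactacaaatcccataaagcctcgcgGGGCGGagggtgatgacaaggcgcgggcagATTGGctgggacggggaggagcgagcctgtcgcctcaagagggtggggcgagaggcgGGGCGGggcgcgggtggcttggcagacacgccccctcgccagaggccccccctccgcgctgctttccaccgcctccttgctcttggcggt
Rab6a: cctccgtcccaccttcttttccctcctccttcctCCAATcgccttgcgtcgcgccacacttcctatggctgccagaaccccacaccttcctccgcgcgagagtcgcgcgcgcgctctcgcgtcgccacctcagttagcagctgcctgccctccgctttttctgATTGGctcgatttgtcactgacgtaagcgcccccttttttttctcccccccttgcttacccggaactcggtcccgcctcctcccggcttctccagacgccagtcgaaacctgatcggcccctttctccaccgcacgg
Rab6b: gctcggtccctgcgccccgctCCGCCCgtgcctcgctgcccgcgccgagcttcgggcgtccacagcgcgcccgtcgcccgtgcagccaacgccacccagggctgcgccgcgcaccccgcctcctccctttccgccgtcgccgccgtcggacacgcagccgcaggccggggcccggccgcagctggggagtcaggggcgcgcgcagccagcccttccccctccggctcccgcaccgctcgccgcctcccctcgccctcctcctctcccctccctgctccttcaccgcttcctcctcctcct
Capitals are the CCAAT box, CCAAT or ATTGG, and the GC box, GGGCGG or CCGCCC. Rab8a held 2 CCAAT boxes and no GC box, and Rab6a 2 CCAAT boxes and no GC box. Rab8b held 1 CCAAT box and 2 GC boxes, and Rab6b held 1 GC box and no CCAAT box. None of the 4 windows held the E-box CACGTG or the core TGGGAA that RBPJ, the DNA-binding partner of Notch, recognises. All motifs were sought on both strands. Among all 32851 promoters listed, 37.4% held a CCAAT box, 35.7% a GC box, 7.15% the E-box and 25.6% the RBPJ core. Of the 45 promoters of the 38 members, 46.7%, 71.1%, 13.3% and 24.4% held these motifs in the same order, and their median GC content was 63.3%, against 52.7% over all promoters. The promoters listed were not filtered by level as the members were, so the sets are unlike and these shares cannot be read as a trait of Rab genes. Neighbouring motifs may share letters at their ends, and a match is a description of the sequence alone.

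The Golgi Rabs held calls in opposite directions. Rab6b (chromosome 9 from 103111787 to 103185276), a form of Rab6 that acts in retrograde traffic at the Golgi, gave FO values of 206 and 271 normalized counts for WT and 236 and 315 for cKO. MZ libraries held fewer, with 118 and 116 in WT and 127 and 115 in cKO, and the subsets did not overlap. The mean was 257 ± 47.1 (SD, n = 4) in FO and 119 ± 5.21 (SD, n = 4) in MZ, with a log2 difference of 1.09 across both genotypes (SE 0.149, limma adjusted p = 0.00123). In WT alone the difference was 1.01 (limma adjusted p = 0.0163). Its call was lost in a fit of only the 4 libraries compared, and without WT FO replicate 2, WT MZ replicate 1 or WT MZ replicate 2. In cKO alone the difference was 1.17 (limma adjusted p = 0.00809), and its call was lost without cKO FO replicate 2 or cKO MZ replicate 2. Rab6b was the minor form, at 37.4 per kb against 394 for Rab6a.

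Rab6a, the widely expressed form, had 1898, 1497, 1869.9 and 1505 normalized counts in FO and 1481, 1171, 1149 and 1188 in MZ, WT libraries first. Its FO libraries also lay above its MZ libraries, by a smaller difference of 0.44 (SE 0.118, limma adjusted p = 0.0239), under 1.5-fold. Rab33b, of the Golgi and of early autophagosomes, did not pass the test (0.26, limma adjusted p = 0.190).

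Rab30 (chromosome 7 from 92741603 to 92844535), which keeps the Golgi stack in order, ran the other way. It had 1786, 1353, 1599 and 1399 normalized counts in FO, WT libraries first, and 4407, 2299, 2209 and 2838 in MZ. WT MZ replicate 1 stood above the other MZ libraries, and the subsets did not overlap without it either. The log2 difference across both genotypes was -0.89 (SE 0.205, limma adjusted p = 0.0131) and was not called without cKO MZ replicate 2 (-0.80, limma adjusted p = 0.0541). In WT alone it was -1.03 (limma adjusted p = 0.0482), was -0.56 without WT MZ replicate 1 (limma adjusted p = 0.147), and kept its call only when WT MZ replicate 2 was the library left out. The other libraries left out gave limma adjusted p of 0.0767 (WT FO replicate 1), 0.167 (WT FO replicate 2), 0.0816 and 0.0818 (cKO FO replicates 1 and 2), and 0.0759 and 0.0764 (cKO MZ replicates 1 and 2). In cKO alone the difference was -0.74 (limma adjusted p = 0.117, and 0.00923 to 0.394 over the alternatives), and it was called under 5 of 16 alternatives, among them DESeq2, the fit of 4 libraries alone, and the fits without WT MZ replicate 1 or WT MZ replicate 2.

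Regulated secretion held the largest difference of any called Rab. Rab37 (ENSMUSG00000020732.13, chromosome 11 from 115091431 to 115162236), which is known from secretory granules of mast cells, gave FO values of 182 and 274 normalized counts for WT and 138 and 234 for cKO. In MZ it had 523 and 625 in WT and 590.0 and 762 in cKO, so that the lowest MZ library held more than the highest FO library. The mean was 625 ± 101 (SD, n = 4) in MZ and 207 ± 59.5 (SD, n = 4) in FO, 3.02 times as high in MZ. The log2 difference, FO minus MZ, was -1.63 across both genotypes (SE 0.208, limma adjusted p = 0.000882), -1.35 for WT libraries alone (limma adjusted p = 0.0186) and -1.90 for cKO libraries alone (limma adjusted p = 0.00427). The WT call was lost without WT FO replicate 1 (limma adjusted p = 0.0927) or WT MZ replicate 2 (limma adjusted p = 0.0784), and the cKO call held under every alternative.

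Cd300lf, a receptor gene of the CD300 family, lies inside Rab37 on the opposite strand, and the annotated exons of the pair share no base. Its level ran from 96.3 to 157 normalized counts in FO and from 1299 to 2226 in MZ, so it moved with the subset as Rab37 did. The part of its reads in the value of Rab37 was not tested. The 5 mast cell and basophil markers summed to between 4.03 and 37.1 normalized counts in FO and between 16.5 and 51.8 in MZ, with none of the 5 at the mean of 10 that the filter asked for.

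The other secretory Rabs were low and did not pass the test. Rab27a, which docks secretory lysosomes and granules at the plasma membrane, had 469, 493, 412 and 329 normalized counts in FO and 342, 434, 365 and 319 in MZ (0.22, SE 0.121, limma adjusted p = 0.211). Rab3a and Rab3d, of synaptic and granule exocytosis, differed by -0.41 and 0.30 (limma adjusted p = 0.0787 and 0.0692), in opposite directions. Rab44, a large Rab found in granulated cells, ranged from 5.16 to 16.2 normalized counts in all libraries but 1 and stood at 27.9 in cKO MZ replicate 1. That is the library with the highest sum of granulocyte markers, and their part in its value was not tested.

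**Figure D3:**
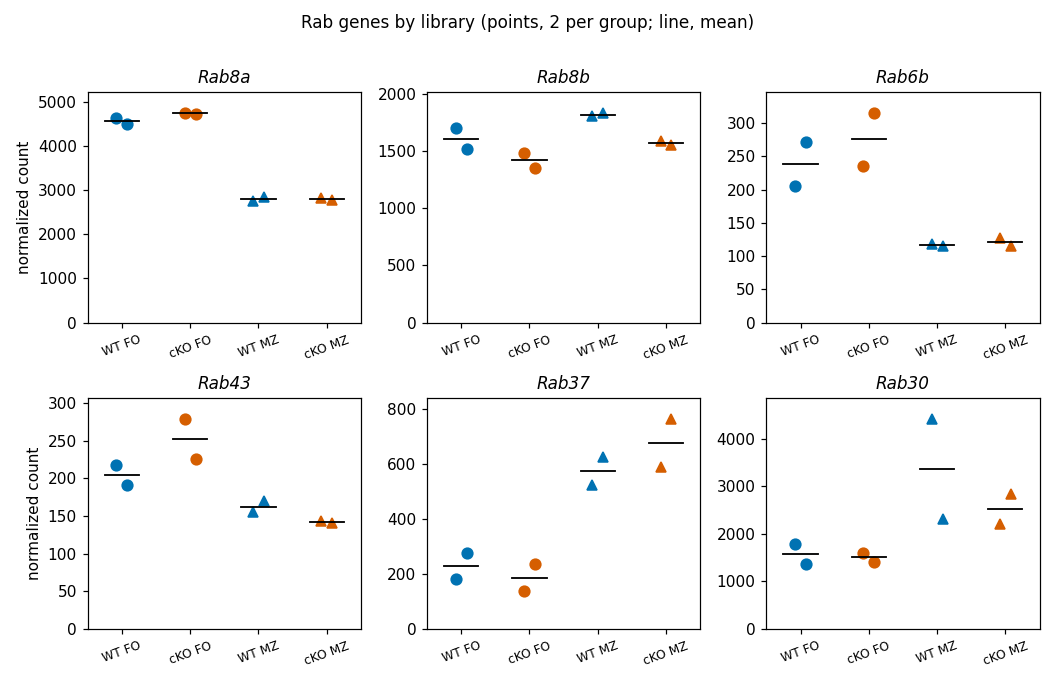
Normalized counts of Rab8a, Rab8b, Rab6b, Rab43, Rab37 and Rab30 in each library (points, 2 per group, circles for FO and triangles for MZ, lines for the group mean, linear axes from 0). Rab8a separates the subsets at 4512 and above against 2856 and below, Rab8b overlaps, and Rab37 and Rab30 are higher in MZ.

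Of the 6 Rabs of the ER and of ER to Golgi traffic, 3 were higher in FO at an adjusted p of at most 0.05, which 16.3% of all genes were, and 3 did not pass, with a median of 0.26. Rab1b and Rab1a, which bring ER-derived carriers to the Golgi, were the highest of them. Rab1b had 2477, 2751, 2461 and 2937 normalized counts in FO and 2534, 2457, 2412 and 2409.8 in MZ, WT libraries first, and its subsets overlapped (0.11, SE 0.0745, limma adjusted p = 0.289). Rab1a had 2519, 2116, 2479 and 2050.3 in FO and 1865, 1807, 1578 and 1863 in MZ, with no overlap (0.36, SE 0.0959, limma adjusted p = 0.0226). Rab2a, which acts at the cis-Golgi and in traffic to lysosomes, differed by 0.45 (SE 0.0704, limma adjusted p = 0.00224) and passed in each genotype, under 1.5-fold. Rab18, of the ER and lipid droplets, and Rab2b differed by 0.16 and -0.04 (limma adjusted p = 0.0947 and 0.865).

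Rab43 (chromosome 6 from 87788853 to 87812164), another Rab of ER to Golgi traffic, gave FO values of 218 and 191 normalized counts for WT and 279 and 226 for cKO, and MZ values of 155 and 169 for WT and 144 and 140.2 for cKO. All FO libraries lay above all MZ libraries. The log2 difference was 0.82 in cKO (SE 0.173, limma adjusted p = 0.0149), 0.33 in WT (limma adjusted p = 0.248) and 0.58 across both genotypes (limma adjusted p = 0.00913), the last just under 1.5-fold. The cKO call was lost without cKO FO replicate 1, cKO MZ replicate 1 or cKO MZ replicate 2, with limma adjusted p of 0.0970, 0.0863 and 0.0836. Rab43 shares 75.4% of its exon bases with Gm45140 on the same strand, which was itself listed at 6.19 to 20.2 normalized counts, so reads of the pair could be split between them and the value of Rab43 is uncertain.

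Recycling endosomes return receptors and MHC molecules to the surface, and 4 of their 7 Rabs were higher in FO at an adjusted p of at most 0.05, each by less than 1.5-fold, where 16.3% of all genes passed in that direction. Rab14, which works between the trans-Golgi network and endosomes, had the highest mean of the 43 members, with 4953, 5109.8, 4893 and 4663 normalized counts in FO and 4150.1, 4321, 4029.7 and 3841 in MZ (0.26, SE 0.0547, limma adjusted p = 0.00818). Rab35, of a rapid recycling route, had 2187, 2371, 2059 and 2335 in FO and 1713, 1934, 1504 and 1708 in MZ (0.39, SE 0.0798, limma adjusted p = 0.00797). Both had no overlap between subsets. Rab11a and Rab11b, of the slow recycling route, differed by 0.29 and 0.30 (limma adjusted p = 0.0135 and 0.00732). Rab12, Rab4b and Rab25 did not pass, with differences from -0.18 to 0.08. Rab4b overlaps Gm21983 on the same strand.

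Early endosome Rabs receive internalised antigen receptor, and 1 of 7 was higher in FO at an adjusted p of at most 0.05, which 16.3% of all genes were. Rab22a was higher in FO by 0.25 (SE 0.0568, limma adjusted p = 0.0114). Rab5c, the fusion Rab with the highest level per kb, had 3820.1, 3953, 3640.1 and 4159 normalized counts in FO and 3573, 3383, 3387 and 3547 in MZ. Its subsets did not overlap, but the difference of 0.16 did not pass (SE 0.0644, limma adjusted p = 0.0888). Rab21, which carries integrins inward, had 3344, 3921, 3351 and 3533 in FO and 3424, 3729, 3248 and 3307 in MZ, with overlap (0.04, SE 0.0703, limma adjusted p = 0.663). Rab5a and Rab5b, which share the role of Rab5c, differed by 0.31 and 0.15 (limma adjusted p = 0.0546 and 0.361), and Rab31 by 0.20 (limma adjusted p = 0.195). Rab20, singled out after its values were seen, had the only negative difference of the step, at -0.60 (SE 0.209, limma adjusted p = 0.0618). It was called higher in MZ without WT FO replicate 1 or WT MZ replicate 2, and limma adjusted p ran from 0.0287 to 0.192 over the alternatives.

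Late endosome and lysosome traffic was represented by Rab7, the Rab of late endosome fusion with lysosomes, and Rab9, of return from late endosomes to the Golgi. Rab7 had 2646, 2628, 2509 and 2475 normalized counts in FO and 2359, 2227, 2177 and 2060.2 in MZ, with no overlap (0.22, SE 0.0557, limma adjusted p = 0.0196). Rab9, on the X chromosome, had 479, 415, 503 and 387 in FO and 419, 319.7, 412 and 372 in MZ (0.23, SE 0.132, limma adjusted p = 0.225).

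In the remaining steps none passed the test. Among Rabs of lysosome-related organelles, Rab29 had 284, 442, 316 and 389.5 normalized counts in FO and 390.1, 460.1, 386 and 426 in MZ (-0.23, SE 0.157, limma adjusted p = 0.295), and Rab32, known from melanosome traffic, ran from 56.1 to 71.7 in FO and from 59.8 to 84.8 in MZ (-0.19, SE 0.182, limma adjusted p = 0.456). Both overlapped between subsets. Rab24, linked to autophagy, had 619, 597, 595 and 680.4 in FO and 640.5, 711, 814 and 700.1 in MZ (-0.20, SE 0.0887, limma adjusted p = 0.124), and Rab28, a Rab of the cilium, had 668, 621, 642 and 642 in FO and 614, 557, 627 and 621 in MZ (0.09, SE 0.0736, limma adjusted p = 0.384). Rab23, which restrains Hedgehog signalling, differed by -0.21 (limma adjusted p = 0.337). Of the less studied members, Rab40c, part of a ubiquitin ligase, had 682, 620.3, 666 and 573 in FO and 640.5, 695, 571 and 629 in MZ (limma adjusted p = 0.981), and Rab19 had 278, 379.6, 269 and 344 in FO and 340.0, 453, 339.9 and 343 in MZ (-0.22, SE 0.151, limma adjusted p = 0.302). Rab39 and Rab39b differed by 0.25 and -0.75 (limma adjusted p = 0.306 and 0.166).

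Members of the same number were also compared as a ratio within each library, which no scaling between libraries can change. Of 9 pairs, 2 had ratios that did not overlap between subsets. Rab8a stood to Rab8b at 2.73 to 3.51 in the FO libraries and 1.52 to 1.79 in the MZ libraries (exact permutation test, 4 against 4 libraries, two-sided p = 0.0286, the smallest possible, and adjusted p = 0.129 over the 9 pairs). Rab3a stood to Rab3d at 0.779 to 0.995 in FO and 1.16 to 1.66 in MZ, with the same exact p and adjusted p. The ratio of Rab6a to Rab6b ran from 4.78 to 9.23 in FO and from 9.08 to 12.6 in MZ (exact p = 0.0571), and that of Rab2a to Rab2b from 8.43 to 13.7 and from 7.05 to 9.38 (exact p = 0.0571). Ratios of Rab11a to Rab11b were nearly level, at 0.704 to 0.776 and 0.705 to 0.755 (exact p = 0.800). No pair passed after adjustment.

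Deletion of Gtf2i gave no call among the Rab genes. Between cKO and WT, 0 of the 43 were called in MZ (0.0339% of all genes were), 0 in FO (0.0677% of all genes), 0 across both subsets (0.108%) and 0 for the interaction of genotype and subset (0% of all genes). edgeR and DESeq2 on the recovered reads also called 0 Rab genes in each, although DESeq2 called more of all genes than limma, with 48 against 5 in MZ, 25 against 10 in FO and 69 against 16 across both subsets. At an unadjusted limma p under 0.05 there were 0 Rab genes in MZ (0%, against 4.04% of all genes) and 1 in FO (2.33%, against 2.59%). At the same limit there were 2 across both subsets (4.65%, against 6.63%) and 1 for the interaction (2.33%, against 0.637%). Averaged over the subsets, the smallest limma adjusted p among the Rab genes was 0.667, and it was 0.998 for MZ and 1.0 for FO.

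The size of the differences was small as well, as it was over all genes tested. The median size was 0.118 in MZ, against 0.130 for all genes, and 0.0739 in FO, against 0.110. All 43 were under 1.5-fold in each comparison of the genotypes, with a range from -0.35 to 0.55 in MZ and from -0.47 to 0.56 in FO. Their median was -0.06 in MZ and -0.02 in FO, against -0.01 in each for all genes tested. The 95% interval lay within 1.5-fold in either direction for 30 of the MZ differences, 25 of the FO differences and 36 of those averaged over the subsets. The shares of all genes inside these limits were not counted, so these counts cannot be read as a trait of the Rab genes. Rab8a, for example, differed between cKO and WT by -0.0028 in MZ and 0.05 in FO (SE 0.0734 for each). The intervals reached past 2-fold in each subset for Rab44, Rab39b, Rab25 and Rab20, and in MZ for Rab30. Gtf2i itself was not called either, at -0.54 in MZ (limma adjusted p = 0.363) and -0.40 in FO (limma adjusted p = 0.989). Both differences lay under the 1.5-fold cutoff, and neither passed the adjusted p with 2 libraries per group. Differences of that size in any Rab gene would thus go uncalled through the cutoff alone.

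**Figure D4:**
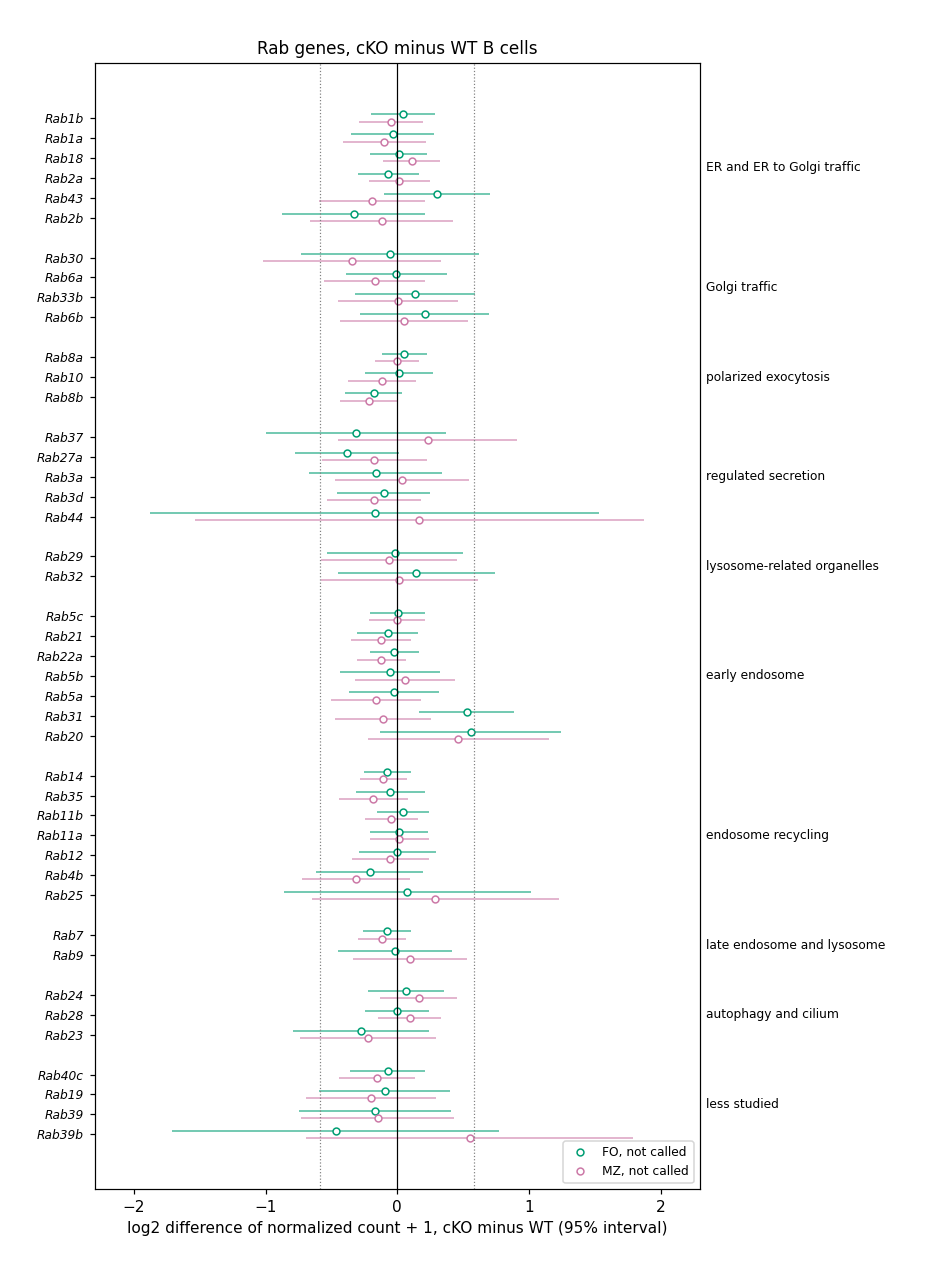
Log2 difference of normalized count + 1, cKO minus WT, with its 95% interval, for each Rab gene in FO (green) and MZ (pink), grouped by trafficking step, with dotted lines at 1.5-fold. No gene was called, all points lie inside the dotted lines, and the widest intervals belong to Rab44, Rab39b, Rab25 and Rab20.

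The genes with an unadjusted p under 0.05 were Rab31, Rab20 and Rab8b, singled out after their values were seen. Rab31, an endosomal Rab close to Rab22a, had 376 and 479 normalized counts in cKO FO against 277 and 312 in WT FO, and 300.0 and 291 in cKO MZ against 305 and 332 in WT MZ. The genotypes did not overlap in FO, where the difference was 0.53 (SE 0.156, limma adjusted p = 1.0), and the interaction with subset was -0.64 (limma adjusted p = 1.0). Rab20, an early endosome Rab of phagocytes, had 92.9 and 108 in cKO FO against 85.8 and 53.3 in WT FO, and 149.5 and 144 in cKO MZ against 130.0 and 86.9 in WT MZ (0.51 across both subsets, limma adjusted p = 0.744). Macrophage markers summed to between 747 and 1149 in cKO FO, 531 and 927 in WT FO, 1349 and 1783 in cKO MZ, and 585 and 1636 in WT MZ, and their part in the value of Rab20 was not tested. Rab8b was lower in each cKO library than in either WT library of its subset (-0.20 across both subsets, limma adjusted p = 0.667). Both cKO libraries lay below both WT libraries in both subsets for 6 of 43 (14.0%, against 5.46% of all genes), and above for Rab20 alone (2.33%, against 3.88%). Of the X-linked members, Rab9 differed between cKO and WT by 0.04 across both subsets (limma adjusted p = 0.973). Rab39b differed by 0.55 in MZ (limma adjusted p = 0.998), where 22.9 and 13.4 normalized counts in cKO lay above 11.6 and 11.8 in WT, and by -0.47 in FO (limma adjusted p = 1.0).

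The proteins that switch, anchor and obey Rabs were read from a list of 127 genes, of which 126 were in the table and 116 were tested. Between FO and MZ across both genotypes 12 of the 116 were called higher in FO (10.3%, against 7.45% of all genes) and 15 higher in MZ (12.9%, against 10.9% of all genes). Exchange factors gave 4 and 3 of 31, GTPase-activating proteins 4 and 3 of 33, effectors 3 and 9 of 44, and the 8 genes of prenylation and GDI 1 and 0. Their median difference was 0.05. The counts include low genes that reached the filter through a single subset, among them Dennd2a, Tbc1d16 and Rilp.

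Tbc1d9, a TBC-domain protein of the family of Rab GTPase-activating proteins, differed most. It had 96.8, 81.8, 141 and 160.0 normalized counts in FO and 2610.1, 2107, 3375 and 3372 in MZ, WT libraries first, a log2 difference of -4.59 (SE 0.104, limma adjusted p = 5.2e-07). The largest difference of a called Rab gene, that of Rab37, was -1.63. Mical3, a monooxygenase that binds Rab8, had 447, 503, 552 and 525 in FO and 1466, 1421, 1603 and 1627 in MZ (-1.59, SE 0.0698, limma adjusted p = 8.6e-06), the opposite direction to Rab8a. Dennd2a, a DENN-domain exchange factor, and Tbc1d16 were low, with 1.12 to 5.71 and 3.02 to 5.71 in FO and 15.4 to 24.7 and 15.0 to 18.1 in MZ (-2.61 and -1.72, limma adjusted p = 0.00212 and 0.00629), and such values depend on the pseudocount.

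Higher in FO were Rilp, Rph3al, Evi5 and Dennd5b. Rilp, which couples Rab7 to dynein, had 15.9 ± 4.44 normalized counts in FO and 6.39 ± 2.76 in MZ (SD, n = 4 each), with a difference of 1.22 (SE 0.361, limma adjusted p = 0.0340). Such low values also depend on the pseudocount, and Rilp was not called in WT (limma adjusted p = 0.0642) or in cKO (limma adjusted p = 0.327). Rilp reached the mean of 10 through its FO libraries, so the filter favoured its difference too. Rph3al, an effector of Rab3 and Rab27, had 288, 314, 312 and 258 in FO and 135, 140.4, 104 and 140.2 in MZ (1.18, SE 0.138, limma adjusted p = 0.000605). Evi5, a GTPase-activating protein, ran from 396 to 516 in FO and from 193 to 248 in MZ (1.11, limma adjusted p = 0.000469). Dennd5b, an exchange factor, ran from 3341 to 4904 in FO and from 1412 to 2387 in MZ (1.05, limma adjusted p = 0.00112). In all 8 named regulators the subsets did not overlap, where 17.9% of all genes lay higher in every FO library and 18.6% in every MZ library. The 8 were named for their large differences, so this separation largely follows from the choice. Between cKO and WT 0 of the 116 were called in MZ, FO or across both subsets, with 3, 3 and 6 at an unadjusted limma p under 0.05, where 4.04%, 2.59% and 6.63% of all genes had one.

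**Figure D5:**
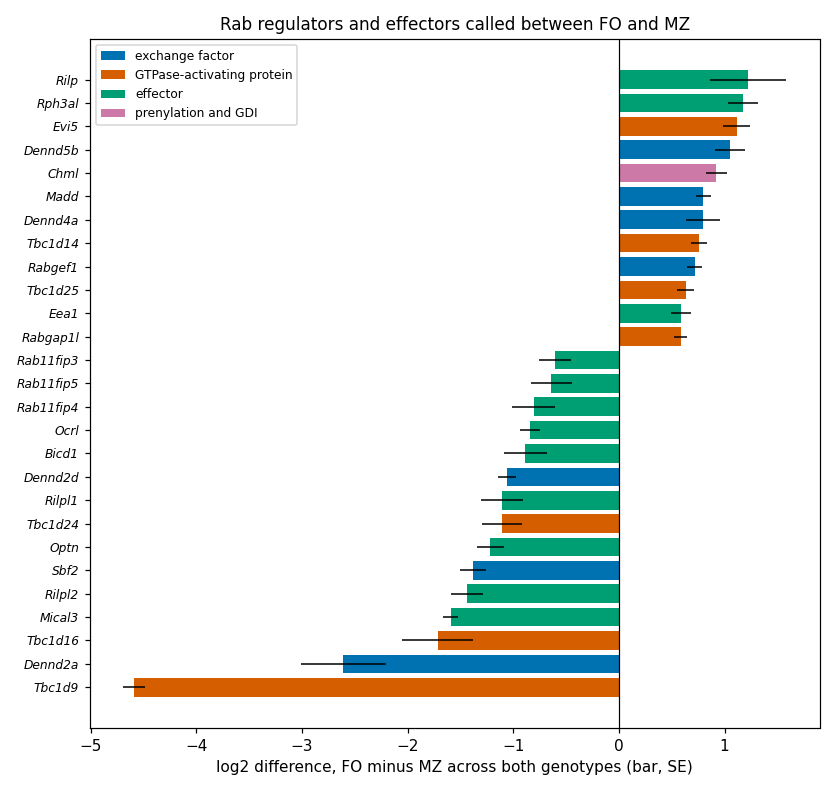
Log2 difference of normalized count + 1, FO minus MZ across both genotypes, with its SE, for the 27 Rab regulators and effectors that were called, coloured by role (bars from 0). Tbc1d9, at -4.59, extends far beyond the others. Of the 15 bars to the left 9 are effectors, the largest role, with 44 of the 116 genes tested.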

How the data were processed

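Total RNA depleted of ribosomal RNA was read as single ends of 50 bases, in 2 libraries for each of 4 groups of sorted cells. Reads had been aligned by the authors with HISAT2 to mm10 and counted per gene (featureCounts and HTSeq stand in the processing notes). What the authors deposited is a signal per gene, the read count over the DESeq2 size factor of the library. Tool versions and the strand setting are not given in the sources used here. Multiplied back, 100% of the values came within 0.01 of a whole read. The table has 27928 genes once 256343 blank lines are dropped, and 27347 of their identifiers occur in GENCODE M21 (GRCm38), which gave coordinates and exon lengths.

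A linear model with 1 mean per group was fitted with limma 3.58.1 (R 4.3.3, empirical Bayes with a mean-variance trend) to log2 normalized counts with a pseudocount of 1, for the 14761 genes whose mean was at least 10, and p was adjusted over all of them. Contrasts were FO against MZ, cKO against WT, each within and across the other factor, and their interaction. On the recovered reads, edgeR 4.0.16 called 1765 genes and DESeq2 1.42.0 called 1885 between the WT subsets, and limma called 1776. Between genotypes across both subsets they called 16, 69 and 16. Further alternatives were a pseudocount of 0.5, no filter, quantile normalization, fitting 4 libraries alone, blocking by replicate number, other fold cutoffs and leaving out each library. An exchanged block, and all alternatives for counts without a fold cutoff, were chosen after seeing the data. The methods were tested on simulated data.

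Members, steps, regulators and marker lists were chosen with earlier results of these data known. Every Rab gene that passed belongs to a step, with values per library for those called and for the 2 of highest mean in each step. Regulators are named for the 4 largest called differences in each direction. Rab2a, Rab11a, Rab11b, Rab22a, Rab8b, Rab31, Rab20 and others outside this rule were named after their values were seen. The number of libraries limits the precision. The 8 ATAC-seq samples were not analysed here. One item of the mouse genotype is not reported here.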

Additional observations from a re-analysis of the deposited data

How the results depend on the processing

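At the 1.5-fold cutoff Rab8a was called between FO and MZ in WT, in cKO and across both genotypes under every other alternative tried, and at 2-fold in none. No called Rab gene changed direction. In WT the 4 called Rab genes became 2 in a fit of only the 4 libraries compared. With each library left out they numbered 2 to 3 in WT, 2 to 5 in cKO and 3 to 6 across both genotypes. Without the fold cutoff 9 passed in cKO and 14 across both genotypes, and with a cutoff of 2-fold 2 and 2 did. The 27 regulators became 59 without the cutoff and 14 at 2-fold, and 22 to 27 with each library left out. Without a fold cutoff, 8 to 14 Rab genes were higher in FO and 1 to 3 higher in MZ across both genotypes with each library left out. For cKO against WT and the interaction, 0 Rab genes were called under every alternative. The intervals between genotypes were widest for Rab44, Rab39b, Rab25 and Rab20.

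The same replicate number was not shown to pair the libraries, since the correlation of same-numbered deviations from the group means ran from -0.30 to 0.59 over the 6 pairs of groups. With the replicate number as a block, 4 Rab genes were called in WT, 4 in cKO, 5 across both genotypes, with Rab20 (higher in MZ) as the added gene, and 0 between genotypes, and 27 regulators. With the cKO MZ numbers exchanged in the block, chosen after seeing the data, the counts were 4, 5, 5, 0 and 29, and 5 Rab genes were higher in MZ without a fold cutoff.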
